A study of Mus musculus with 8 samples.

Results

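The genes described here bear the names of subunits of the mitochondrial respiratory chain and of ATP synthase. Each was assigned to a complex by the start of its symbol, which need not be the complex of its protein. They were taken as every protein-coding gene in the count files whose symbol met a rule. It began with mt-Nd, mt-Co, mt-Cytb or mt-Atp, with Uqcr, Cox4 to Cox8 or Atp5, or was Sdha, Sdhb, Sdhc or Sdhd. Symbols of Nduf followed by a, b, c, s or v and a digit were also taken. Of 54532 genes in the files, 98 met this rule, of which 13 lie in the mitochondrial genome and 85 in the nuclear genome. Of these, 91 had enough reads to be tested, namely 12 mitochondrially encoded and 79 nuclear genes. The 7 others were mt-Atp8, Cox6b2, Cox7a1, Cox7b2, Cox8b, Cox8c and a second identifier with the symbol Atp5o, and none of them had more than 9 counts in any library.

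The respiratory chain passes electrons from NADH and succinate to oxygen through complexes I to IV and pumps protons across the inner mitochondrial membrane, and ATP synthase (complex V) uses that gradient to make ATP. Complexes I, III, IV and V are built from proteins made inside the organelle together with many proteins imported from the cytosol, whereas complex II (Sdha to Sdhd) is wholly nuclear. The mitochondrial genes are transcribed as long precursor RNAs from both strands of the circular genome and are cut into single mRNAs. In beta cells, the ATP made by this chain closes potassium channels and triggers insulin release.

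Islets, which are small groups of hormone-secreting cells in the pancreas, came from Sting-/- mice and from wild-type mice, all 25 to 30 weeks old. They were freed with collagenase, picked by hand and kept in culture overnight. Then DMXAA, a small molecule that activates mouse STING, was added at 50 µg/mL for 3 h, or its solvent DMSO was added for the same time. The 4 groups were knockout-labelled islets with DMXAA, knockout-labelled islets with DMSO, wild-type islets with DMXAA and wild-type islets with DMSO, with 2 libraries each. The sources used here state neither strain nor sex of the mice. They also do not say whether islets of several mice were pooled or whether replicate libraries represent different mice, so p-values cover only the variation among these libraries, some or all of which may be technical. Libraries were made from polyadenylated RNA, and the deposited values are whole-number counts per gene.

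The libraries held between 15624020 and 19601850 counts. Sting1, the targeted gene, was not lower in the knockout-labelled libraries. It had 35 and 27 counts in knockout-labelled DMXAA libraries, 48 and 19 in knockout-labelled DMSO libraries, 23 and 39 in wild-type DMXAA libraries and 39 and 41 in wild-type DMSO libraries. Cxcl10, an interferon-induced chemokine, stood at 574 and 521 CPM (the count relative to the TMM-scaled total of its library) in wild-type DMXAA libraries, while the 6 others held 2.95 to 9.34 CPM. Beta-cell markers were abundant throughout, with 164104 to 324483 CPM summed over 12 genes, of which insulin (Ins2) alone took 104193 to 213638 CPM, and glucagon (Gcg) took 15226 to 24607 CPM. Acinar markers, from the digestive part of the pancreas, summed over 18 genes to 435 and 381 CPM in knockout-labelled DMXAA libraries, 1678 and 2483 in knockout-labelled DMSO libraries, 1646 and 3091 in wild-type DMXAA libraries and 7167 and 1450 in wild-type DMSO libraries. In bulk islets, fewer cells of a type and less RNA per cell cannot be told apart.

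Part of the mouse mitochondrial genome also exists as a near-identical stretch of nuclear DNA, so reads of the genes inside it can match both places. On chromosome 1, at chr1:24611535-24616197 (build mm10, minus strand, GENCODE M21 annotation), 7 annotated pseudogenes lie within 4663 bases. They match, in order, the end of mt-Co1, nearly all of mt-Co2, mt-Atp6, mt-Co3, mt-Nd3 and mt-Nd4l, and the start of mt-Nd4. The first 75 bases of mt-Co2 (chrM:7013-7087) and of its copy Gm28661 (chr1:24615491-24615565) are shown because they do not differ at a single base.
mt-Co2: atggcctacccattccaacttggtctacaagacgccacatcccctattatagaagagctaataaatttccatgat
Gm28661: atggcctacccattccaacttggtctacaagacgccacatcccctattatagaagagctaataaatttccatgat
The first 40 bases of mt-Nd3 (chrM:9459-9498) and of its copy Gm28438 (chr1:24613080-24613119) hold the 1 mismatch between these genes, written in capitals.
mt-Nd3: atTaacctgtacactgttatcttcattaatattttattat
Gm28438: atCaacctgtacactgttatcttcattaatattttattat
A stretch of mt-Co1 outside the chromosome 1 copy (chrM:5928-6047) is shown beside the more diverged copy Gm13340 (chr2:22588928-22589047, minus strand), with the 5 differing bases in capitals.
mt-Co1: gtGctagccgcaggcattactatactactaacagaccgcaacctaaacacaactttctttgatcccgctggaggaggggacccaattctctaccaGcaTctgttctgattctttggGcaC
Gm13340: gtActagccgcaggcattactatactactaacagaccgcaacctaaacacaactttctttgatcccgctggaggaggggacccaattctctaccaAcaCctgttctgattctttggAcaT
The whole coding sequence of mt-Atp8 (chrM:7766-7969) is shown because its last 43 bases, in capitals, are also the start of mt-Atp6.
mt-Atp8: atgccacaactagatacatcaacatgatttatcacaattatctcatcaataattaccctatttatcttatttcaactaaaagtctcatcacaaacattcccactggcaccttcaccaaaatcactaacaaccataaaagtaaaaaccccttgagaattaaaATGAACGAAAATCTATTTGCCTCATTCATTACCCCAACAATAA
The 5 mitochondrial genes with at least 90% of their bases inside the copy (mt-Co2, mt-Co3, mt-Atp6, mt-Nd3 and mt-Nd4l) had 10 to 1130 counts per library. The 7 genes that reach outside it (mt-Nd1, mt-Nd2, mt-Co1, mt-Nd4, mt-Nd5, mt-Nd6 and mt-Cytb) had 1920 to 113380 counts. Per kilobase of mRNA, the 5 averaged 2.91 to 45.1 CPM and the 7 averaged 438 to 2586 CPM over the 8 libraries. mt-Atp8, which overlaps mt-Atp6, had 0 counts in 6 libraries and 1 count in 2. Copies were sought among annotated transcripts only, so just the 21.1% of mt-Atp8 shared with mt-Atp6 counts as inside the copy. The rest of mt-Atp8 lies between mt-Co2 and mt-Atp6, whose copies flank a part of the stretch that was not searched.

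**Figure D1:**
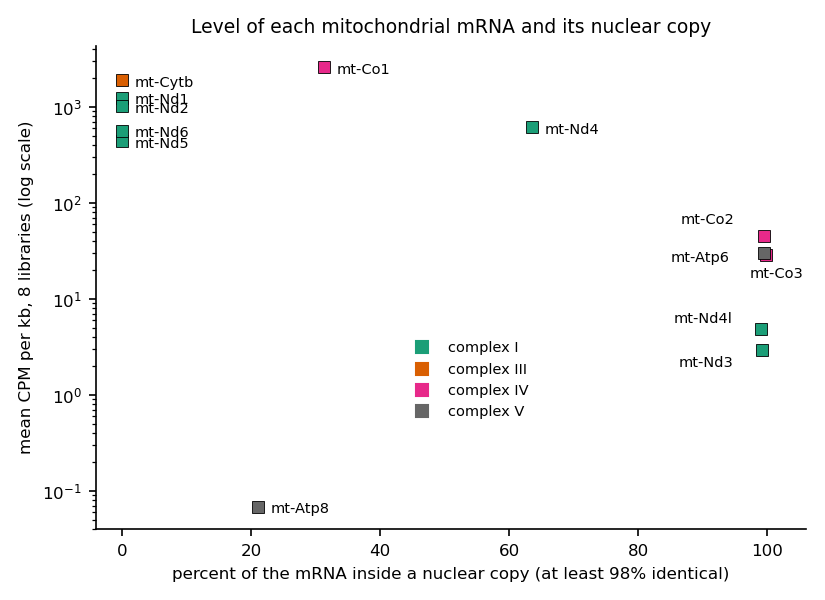
Mean level of each of the 13 mitochondrially encoded mRNAs over the 8 libraries (vertical axis, CPM per kilobase, log scale) against the percent of its bases inside a nuclear copy that is at least 98% identical (horizontal axis). The 5 genes with at least 90% of their bases in the copy sit at 2.91 to 45.1 CPM per kilobase. The 7 others apart from mt-Atp8 sit at 438 to 2586. The percent of mt-Atp8 counts annotated copies only, and most of this gene was not compared with the nuclear stretch.

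The pseudogenes of the copy received counts of their own. Gm28439, the copy of mt-Nd4, had 56 to 103 counts per library, against 9399 to 23230 for mt-Nd4, and Gm29216, the copy of mt-Co1, had 69 to 179, against 45473 to 113380 for mt-Co1. For genes wholly or almost wholly inside the copy the counts were nearer to each other. Gm10925, the copy of mt-Atp6, had 180 to 393 counts per library, and Gm28661, the copy of mt-Co2, had 269 to 555. Gm28437, the copy of mt-Co3, reached 1533 counts in knockout-labelled DMXAA library 1 and 1024 in knockout-labelled DMSO library 1, against 223 to 437 in the 6 others. mt-Atp6 reached 1130 counts in knockout-labelled DMXAA library 2 and had 158 to 377 in the 7 others. How reads that match both places were assigned is not given in the sources used here, and the part of the copy in these low values was not tested. The 7 abundant genes carried 98.7% to 99.5% of all mitochondrially encoded counts, and of those 7 only mt-Nd4 (63.6% of its bases) and mt-Co1 (31.3%) reach into the copy.

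Among nuclear members, 15 of 85 had another annotated transcript at 98% identity or more over some of their length, and 8 had most of their bases in such copies. Atp5g2, a gene for subunit c of ATP synthase, lay wholly within such copies, Uqcrb, a small complex III subunit, had 62.8% of its bases in 1 copy, and Cox5b, a complex IV subunit, had 45.1%. Values of these genes are less certain to be their own.

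Levels per kilobase placed the 7 abundant mitochondrial mRNAs above every nuclear member. mt-Co1, the catalytic subunit of complex IV, averaged 2586 CPM per kilobase, mt-Cytb, the cytochrome b of complex III, 1900, mt-Nd1 1246, mt-Nd2 1016, mt-Nd4 614, mt-Nd6 563 and mt-Nd5 438, the last 5 all being membrane subunits of complex I. The nuclear genes with the highest level were Atp5b, the catalytic beta subunit of ATP synthase, at 371 CPM per kilobase, Uqcrq of complex III at 334 and Cox6a1 of complex IV at 295. Complexes here are those assigned by symbol alone. The lowest above the filter were Cox4i2 (complex IV) at 1.48, Ndufa4l2 (complex I) at 5.46 and Atp5s (complex V) at 9.23 CPM per kilobase. In the other complexes they were Sdhc (complex II) at 36.3 and Uqcrc2 (complex III) at 60.0 CPM per kilobase. Median levels of nuclear members were 44.2 CPM per kilobase for the 37 genes of complex I, 68.0 for the 4 of complex II, 92.6 for the 8 of complex III, 125 for the 13 of complex IV and 142 for the 17 of complex V. The highest and the lowest of the 7 abundant mitochondrial mRNAs were thus 2586 and 438. Of the 13 mitochondrial genes, mt-Nd6 is the only one coded on the minus strand of the reference. mt-Nd6 overlaps the end of mt-Nd5 by 14 bases on the opposite strand, and since the strand setting of the counting is not given, reads from mt-Nd6 and reads antisense to it cannot be told apart.

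The mitochondrially encoded genes together made up 1.12% and 0.848% of the counts in the knockout-labelled DMXAA libraries, 1.22% and 1.52% in the knockout-labelled DMSO libraries, 0.734% and 0.647% in the wild-type DMXAA libraries and 1.20% and 1.01% in the wild-type DMSO libraries. Within each genotype label, both DMXAA libraries lay below both DMSO libraries. The 85 nuclear genes made up 0.638% and 0.758% in knockout-labelled DMXAA libraries, 0.732% and 0.700% in knockout-labelled DMSO libraries, 0.676% and 0.684% in wild-type DMXAA libraries and 0.597% and 0.641% in wild-type DMSO libraries. The nuclear shares spanned a narrow range, and the wild-type DMSO libraries were 2 of the 3 lowest.

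The ratio of summed mitochondrial to summed nuclear counts was 1.75 and 1.12 in knockout-labelled DMXAA libraries, 1.67 and 2.18 in knockout-labelled DMSO libraries, 1.08 and 0.945 in wild-type DMXAA libraries and 2.02 and 1.57 in wild-type DMSO libraries. In wild-type islets the 2 treatments did not overlap, and in knockout-labelled islets they did. On the log2 scale the ratio differed by -0.81 between DMXAA and DMSO in wild-type islets and by -0.44 in knockout-labelled islets, where the pooled SD between libraries of a group was 0.30 (n = 2 per group). Between genotype labels it differed by 0.47 under DMXAA and by 0.10 under DMSO. These are descriptions of summed counts, with no test. Without knockout-labelled DMXAA library 1 the difference in knockout-labelled islets was -0.77, and without library 2 it was -0.12.

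**Figure D2:**
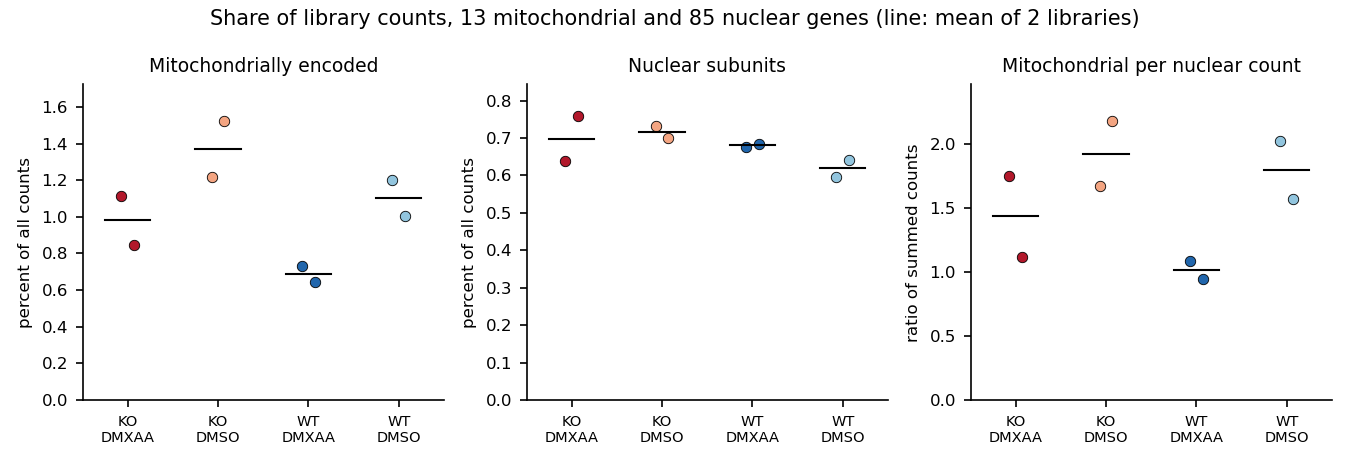
Percent of all counts in the 13 mitochondrially encoded genes (left) and the 85 nuclear genes (middle), and the ratio of the 2 sums (right), for each of the 8 libraries by group. Points are libraries and lines are means of 2. The mitochondrial share is lower with DMXAA within both genotype labels (0.647% to 1.12% against 1.01% to 1.52%), while the nuclear share stays between 0.597% and 0.758%.

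With DMXAA in wild-type islets, the mitochondrial mRNAs were lower and most nuclear subunit mRNAs were higher, but only mt-Nd4 passed the test. mt-Nd4 (ENSMUSG00000064363, chrM:10167-11544), which encodes a proton-pumping subunit of complex I, had 555 and 489 CPM in wild-type DMXAA libraries, against 998 and 829 CPM in wild-type DMSO libraries. The groups did not overlap, and its log2 fold change was -0.81 (SE 0.18, edgeR quasi-likelihood adjusted p = 0.0425). It was 1 of 12 mitochondrially encoded genes called, where 1.48% of all 17055 genes tested were called, and 0 of 79 nuclear genes were. DESeq2 called 3 mitochondrial and 3 nuclear genes. Here and below, shares over all genes are given for the main edgeR fit only. Calls of DESeq2 and of other fits stand without such a share. In edgeR, 7 mitochondrial and 16 nuclear genes had an unadjusted p under 0.05, as had 2025 of all 17055 genes tested. The log2 fold change lay between -0.93 and -0.65 in the 8 fits that left out a library. The call held in 3 of them, was lost without wild-type DMSO library 1, either wild-type DMXAA library or either knockout-labelled DMSO library, and was lost with the acinar marker sum as a covariate (-0.74, adjusted p = 0.0738).

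mt-Nd5, the neighbouring complex I gene, had 410 and 355 CPM in wild-type DMXAA libraries, against 1163 and 607 CPM in wild-type DMSO libraries. Its log2 fold change of -1.21 (SE 0.27) missed the threshold (edgeR adjusted p = 0.0560), and the 2 DMSO libraries differed from each other by more than the lower one differed from DMXAA. mt-Nd6 had 116 and 99.9 CPM in wild-type DMXAA libraries, against 512 and 174 CPM in wild-type DMSO libraries, with wild-type DMSO library 1 far above the other wild-type libraries (log2 fold change -1.67, SE 0.51, edgeR adjusted p = 0.330). mt-Nd2 had 926 and 661 CPM against 1902 and 1036 CPM, mt-Nd1 996 and 758 against 1444 and 1170, and mt-Co1 2683 and 2366 against 3834 and 3361, each with the wild-type DMXAA values before those of wild-type DMSO. In all 3 genes the groups did not overlap and the test was not passed. Of the 7 abundant genes, mt-Cytb stood closest to its DMSO level, at 1640 and 1354 CPM with DMXAA and 1973 and 1878 CPM with DMSO (log2 fold change -0.36, SE 0.19).

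Of the 12 mitochondrial genes tested, 11 had both wild-type DMXAA libraries below both wild-type DMSO libraries, as had 23.9% of all genes tested. Their median log2 fold change was -0.55, against 0.00 over all genes tested. Of the 79 nuclear genes, 43 had both DMXAA libraries above both DMSO libraries, as had 22.5% of all genes, and 3 had both below. The nuclear median was 0.28 over all complexes, and it was 0.33 for complex I, 0.00 for complex II, 0.31 for complex III, 0.24 for complex IV and 0.11 for complex V. The complex II genes, which have no mitochondrial partner, showed small differences, with log2 fold changes of 0.22 for Sdha, the flavoprotein, -0.09 for Sdhb, the iron-sulfur subunit, -0.10 for Sdhc and 0.10 for Sdhd, the membrane anchors. Markers of other cells moved in the same comparison. Of 15 endothelial markers, 4 fell and 14 had negative values (median -0.51), all 16 acinar markers tested had negative values (median -0.85, 0 called), and so had 9 of 10 lymphocyte markers (median -1.67, 0 called). Beyond the acinar covariate, their part in the respiratory values was not tested.

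**Figure D3:**
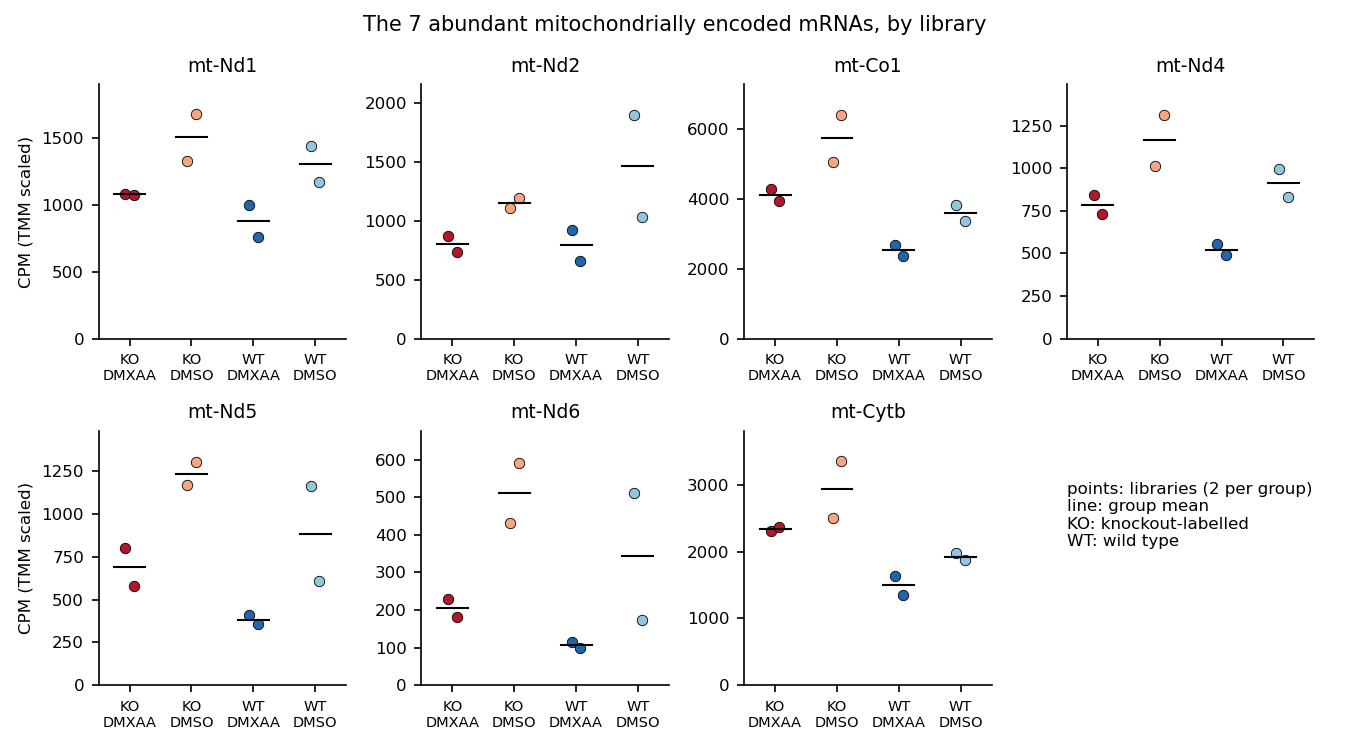
CPM (counts after TMM scaling of the library size) of the 7 abundant mitochondrially encoded mRNAs in each library, by group, with every vertical axis starting at 0. Points are libraries and lines are means of 2. Within both genotype labels the DMXAA libraries sit below the DMSO libraries for each gene, and in wild-type DMSO islets mt-Nd2, mt-Nd5 and mt-Nd6 are far apart between the 2 libraries (1163 and 607 CPM for mt-Nd5).

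The 3 nuclear genes with the smallest p in wild-type islets were Ndufv3, Cox5b and Uqcrb. Ndufv3, an accessory subunit of the NADH-binding module of complex I, had 60.8 and 52.4 CPM in wild-type DMXAA libraries, against 26.9 and 39.9 CPM in wild-type DMSO libraries (log2 fold change 0.76, SE 0.21, edgeR adjusted p = 0.146). Cox5b, a subunit of complex IV, had 51.5 and 51.8 CPM against 20.8 and 31.9 CPM (0.97, SE 0.28). Uqcrb had 64.3 and 61.9 CPM against 33.7 and 46.9 CPM (0.65, SE 0.21). In all 3 the DMXAA libraries were close to each other and above both DMSO libraries, of which library 1 was the lower. The count of calls rested on these libraries. It rose when library 1 stood alone for wild-type DMSO and not when library 2 did. The share of all genes called in those fits is not given. Without either knockout-labelled DMXAA library 2 nuclear genes were called.

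With DMXAA in knockout-labelled islets, 0 of 12 mitochondrial and 0 of 79 nuclear genes were called, where 0.375% of all genes were. DESeq2 also called 0 and 0. In edgeR, 5 mitochondrial genes and 1 nuclear gene had an unadjusted p under 0.05, as had 1245 of all 17055 genes tested. mt-Nd4 had 844 and 731 CPM in knockout-labelled DMXAA libraries, against 1011 and 1315 CPM in knockout-labelled DMSO libraries (log2 fold change -0.56, SE 0.18, edgeR adjusted p = 0.335). mt-Nd5 had 801 and 578 CPM against 1169 and 1304 CPM (-0.84, SE 0.27), and mt-Nd6 had 230 and 181 CPM against 433 and 591 CPM (-1.32, SE 0.50). The groups did not overlap in these 3 genes. Over the 12, 9 had both DMXAA libraries below both DMSO libraries, as had 17.7% of all genes tested, and the median was -0.48. With the acinar covariate, the log2 fold change was -0.31 for mt-Nd4, -0.074 for mt-Nd5 and 0.036 for mt-Nd6. These values cannot separate acinar content from treatment. Acinar sums were 435 and 381 CPM in knockout-labelled DMXAA libraries, against 1678 and 2483 CPM in knockout-labelled DMSO libraries. The slope of the covariate came from differences within groups, the widest being in wild-type DMSO islets (7167 and 1450 CPM). Lymphocyte markers moved in the same comparison, with 3 of 10 tested called lower, and summed to 13.02 and 15.74 CPM in knockout-labelled DMXAA libraries, against 133 and 100.4 CPM in knockout-labelled DMSO libraries. All 16 acinar markers tested were lower too, with a median of -2.89 and 0 calls. Other lists were higher. All 15 endothelial markers had positive values (median 0.67, 2 called). So had all 12 markers of fibroblasts and stellate cells (median 0.88, 0 called) and all 14 of macrophages (median 0.42, 0 called). The part of these cells in the respiratory values was not tested.

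The nuclear genes of knockout-labelled islets lay around 0, with a median log2 fold change of -0.05, 25 positive and 54 negative values and a range of -0.52 to 0.51. The smallest p belonged to Atp5mpl, a small membrane subunit of ATP synthase, with 28.9 and 47.2 CPM in knockout-labelled DMXAA libraries, against 46.0 and 62.5 CPM in knockout-labelled DMSO libraries (-0.52, SE 0.24). Uqcrb (-0.39, SE 0.21) and Cox7a2, the complex IV subunit of most non-muscle tissues (-0.27, SE 0.17), came next. The groups overlapped for Atp5mpl and did not for Uqcrb and Cox7a2. Without knockout-labelled DMXAA library 1 the nuclear median was 0.19, and without library 2 it was -0.35, so its sign rested on 1 library.

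The difference between the DMXAA effects of the 2 genotype labels was tested directly. It was called for 0 of 12 mitochondrial and 0 of 79 nuclear genes, where 1.2% of all genes were called. DESeq2 called 0 and 1. In edgeR, 0 mitochondrial and 8 nuclear genes had an unadjusted p under 0.05, against 1485 of all 17055 genes tested. For mt-Nd4 the effects differed by 0.24 (SE 0.25) and for mt-Nd5 by 0.37 (SE 0.38), so differences of this size were within their error. The nuclear differences had a median of -0.31, which was -0.63 without knockout-labelled DMXAA library 2 and -0.066 without library 1, with Uqcrb (-1.04, SE 0.29, edgeR adjusted p = 0.168), Ndufv3 (-0.85, SE 0.30) and Cox5b (-1.13, SE 0.39) the 3 with the smallest p. With the acinar covariate 6 nuclear genes were called.

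**Figure D4:**
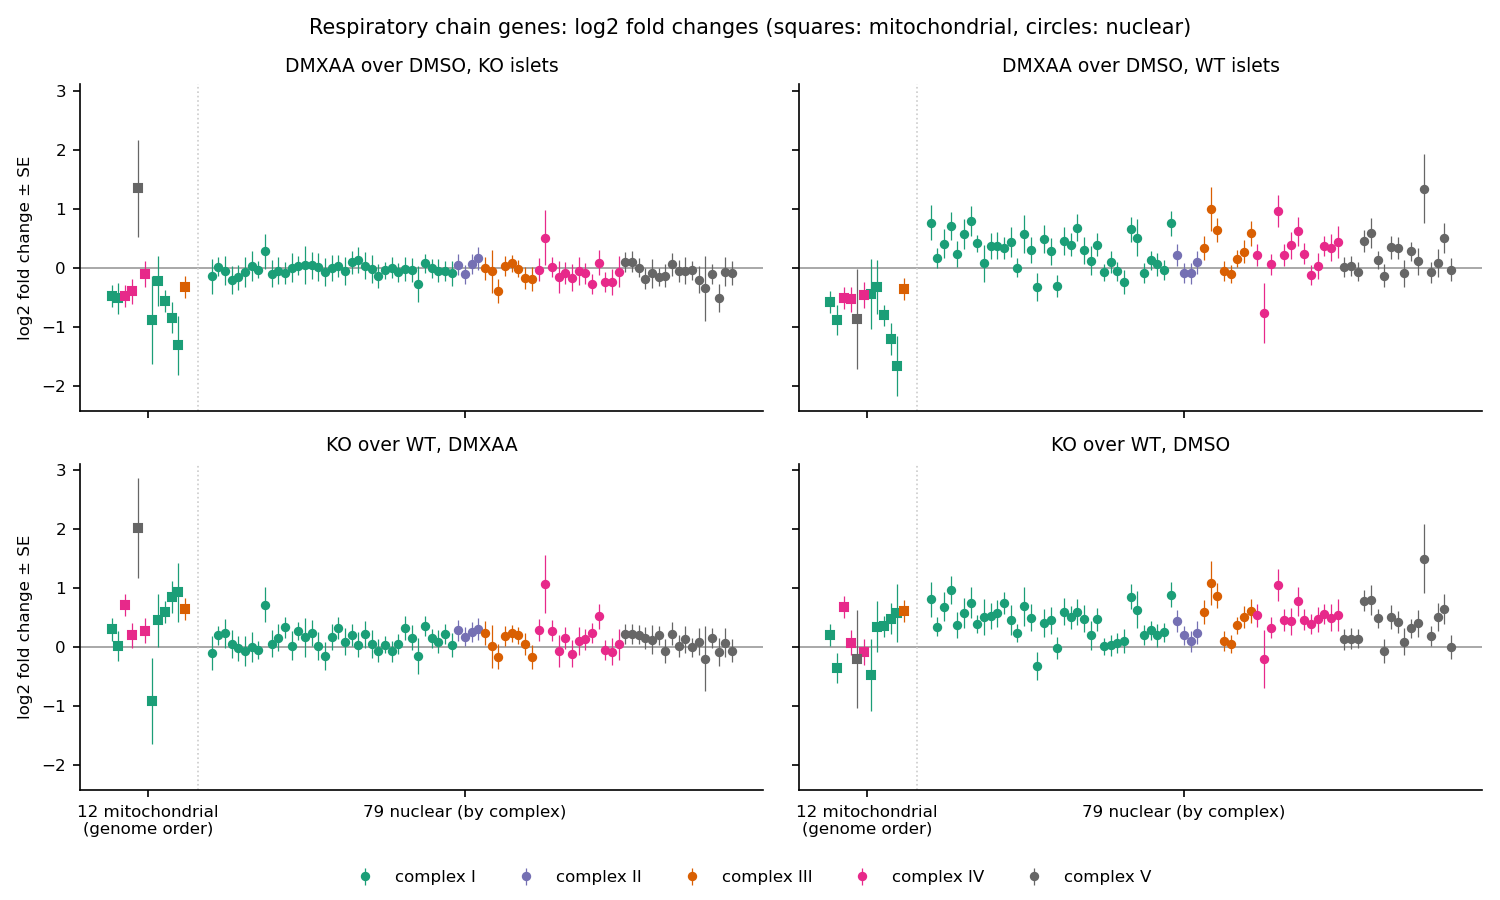
Log2 fold change with its standard error for 12 mitochondrially encoded genes (squares, in genome order) and 79 nuclear genes (circles, grouped and coloured by complex), in 4 comparisons of 2 groups. Mitochondrial genes lie mostly below 0 with DMXAA in both genotype labels (medians -0.48 and -0.55), and nuclear genes lie mostly above 0 with DMXAA in wild-type islets (median 0.28) and between knockout-labelled and wild-type islets under DMSO (median 0.46).

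Averaged over both genotype labels, DMXAA gave 2 calls among the 12 mitochondrial genes and 0 among the 79 nuclear genes, where 0.745% of all genes tested were called. mt-Nd4 fell (log2 fold change -0.69, SE 0.13, edgeR adjusted p = 0.0224), as did mt-Nd5 (ENSMUSG00000064367, chrM:11742-13565; -1.03, SE 0.19, adjusted p = 0.0323), and for both all 4 DMXAA libraries lay below the DMSO libraries of their own genotype label. In genome order along the heavy strand, the values were -0.53 for mt-Nd1, -0.70 for mt-Nd2, -0.50 for mt-Co1, -0.69 for mt-Nd4, -1.03 for mt-Nd5 and -0.35 for mt-Cytb, and that of mt-Nd6 on the light strand was -1.49 (SE 0.36, adjusted p = 0.276). Among the genes within the copy, mt-Co2 was at -0.47, mt-Co3 at -0.28, mt-Nd3 at -0.66, mt-Nd4l at -0.27 and mt-Atp6 at 0.24. DESeq2 called 6 mitochondrial and 0 nuclear genes. In edgeR, 8 mitochondrial and 3 nuclear genes had an unadjusted p under 0.05, as had 1692 of all 17055 genes tested. The mt-Nd4 call held in 3 of 8 fits without a library and that of mt-Nd5 in 2 of 8, and neither held with the acinar covariate (-0.52 and -0.51). All 10 lymphocyte markers tested had negative values here (median -2.76, 2 called), as had all 16 acinar markers (median -1.81, 0 called). Of 15 endothelial markers, 10 had positive values (median 0.11, 0 called). Beyond the acinar covariate, the part of these cells was not tested.

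Within a library, mt-Nd5 and mt-Nd6 varied relative to mt-Cytb more than mt-Co1 did. There were 0.346 and 0.245 mt-Nd5 counts per mt-Cytb count in knockout-labelled DMXAA libraries, 0.466 and 0.388 in knockout-labelled DMSO libraries, 0.250 and 0.262 in wild-type DMXAA libraries and 0.590 and 0.323 in wild-type DMSO libraries. mt-Co1 counts per mt-Cytb count stayed between 1.64 and 2.02. mt-Nd6 counts per mt-Cytb count ranged from 0.0705 in wild-type DMXAA library 1 to 0.260 in wild-type DMSO library 1. Both ratios to mt-Cytb were lower in DMXAA libraries than in the DMSO libraries of the same genotype label. The same held for mt-Co1 and mt-Nd4. For mt-Co1 the ratios with DMXAA and DMSO were 1.85 and 1.67 against 2.02 and 1.91 in knockout-labelled islets. In wild-type islets they were 1.64 and 1.75 against 1.94 and 1.79. For mt-Nd4 they were 0.365 and 0.309 against 0.403 and 0.391, and 0.338 and 0.361 against 0.506 and 0.441, in the same order. The ribosomal RNAs of the mitochondrion took 0.0248% and 0.0171% of counts in knockout-labelled DMXAA libraries, 0.0298% and 0.0353% in knockout-labelled DMSO libraries, 0.0168% and 0.0159% in wild-type DMXAA libraries and 0.0287% and 0.0247% in wild-type DMSO libraries.

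The averaged nuclear values for DMXAA were small, with a median of 0.11. The median was -0.030 without knockout-labelled DMXAA library 2 and 0.23 without library 1. Ndufb8, an accessory complex I subunit, had 30.8 and 41.9 CPM in knockout-labelled DMXAA libraries, 37.3 and 29.2 CPM in knockout-labelled DMSO libraries, 35.7 and 34.8 CPM in wild-type DMXAA libraries and 17.0 and 26.8 CPM in wild-type DMSO libraries. It had the smallest p of the nuclear genes (0.41, SE 0.16), and only its wild-type groups did not overlap. Ndufa3 (0.41, SE 0.18) and Ndufv3 (0.33, SE 0.15; -0.03 with the acinar covariate) followed.

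Under DMSO, nuclear subunit mRNAs were mostly higher in knockout-labelled islets than in wild-type islets, while none passed the test. Of 79 nuclear genes, 64 had both knockout-labelled libraries above both wild-type libraries, as had 24.3% of all genes tested, and 0 had both below. Their median log2 difference was 0.46, with 0.47 for complex I, 0.22 for complex II, 0.55 for complex III, 0.47 for complex IV and 0.40 for complex V. Calls were 0 of 79 nuclear and 0 of 12 mitochondrial genes, where 0.223% of all genes were called. DESeq2 called 8 and 2. In edgeR, 38 nuclear and 2 mitochondrial genes had an unadjusted p under 0.05, as had 2092 of all 17055 genes tested. Markers of other cells moved too. All 10 lymphocyte markers tested had positive values, of which 2 were called (median 2.53), 15 of 16 acinar markers had negative values (median -0.96, 0 called), and all 10 markers of the other hormone cells of the islet had positive values (median 0.41, 0 called). Beyond the acinar covariate, their part in the nuclear values was not tested.

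Atp5d, the delta subunit in the central stalk of ATP synthase, had 175.2 and 175.1 CPM in knockout-labelled DMSO libraries, against 87.0 and 116 CPM in wild-type DMSO libraries (log2 difference 0.79, SE 0.18, edgeR adjusted p = 0.131). Uqcrb had 74.3 and 73.4 CPM against 33.7 and 46.9 CPM (0.87, SE 0.21), and Ndufv3 had 66.0 and 57.6 CPM against 26.9 and 39.9 CPM (0.88, SE 0.21). Ndufa7, an accessory complex I subunit, had 74.89 and 74.91 CPM against 41.2 and 48.2 CPM (0.74, SE 0.19). In these 4 genes wild-type DMSO library 1 was the lowest of the 8 libraries. Nuclear genes were called when library 1 stood alone for wild-type DMSO and not when library 2 did. The share of all genes called in those fits is not given. Of the mitochondrial genes, mt-Co1 had 5069 and 6420 CPM in knockout-labelled DMSO libraries, against 3834 and 3361 CPM in wild-type DMSO libraries (0.68, SE 0.19, edgeR adjusted p = 0.200), and 5 of 12 had both knockout-labelled libraries above both wild-type ones.

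Under DMXAA the mitochondrial genes were higher in knockout-labelled islets, with a larger median difference than the nuclear genes, and none passed the test. Of 12, 7 had both knockout-labelled libraries above both wild-type libraries, as had 23.3% of all genes tested, and 8 of 79 nuclear genes did. The median log2 difference was 0.52 for mitochondrial and 0.13 for nuclear genes, and 0.04 over all genes tested. The nuclear median was -0.18 without knockout-labelled DMXAA library 2 and 0.38 without library 1, so its sign rested on 1 library. Calls were 0 of 12 and 0 of 79, where 2.39% of all genes were called. DESeq2 called 4 and 0. In edgeR, 4 mitochondrial and 3 nuclear genes had an unadjusted p under 0.05, as had 2216 of all 17055 genes tested. mt-Co1 had 4283 and 3948 CPM in knockout-labelled DMXAA libraries, against 2683 and 2366 CPM in wild-type DMXAA libraries (0.71, SE 0.19, edgeR adjusted p = 0.0753). mt-Cytb had 2312 and 2363 CPM against 1640 and 1354 CPM (0.64, SE 0.19), and mt-Nd5 had 801 and 578 CPM against 410 and 355 CPM (0.85, SE 0.27).

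The nuclear genes with the smallest p under DMXAA were Cox7a2l, Ndufa4l2 and Cox4i2. Cox7a2l, which helps to join complexes III and IV into supercomplexes, had 120 and 214 CPM in knockout-labelled DMXAA libraries, against 121 and 111 CPM in wild-type DMXAA libraries (0.53, SE 0.21), so that its difference came from 1 library. Ndufa4l2, a hypoxia-responsive paralogue of Ndufa4, had 6.97 and 6.61 CPM against 4.36 and 3.90 CPM (0.72, SE 0.30; -0.06 with the acinar covariate). Cox4i2, the hypoxia-linked isoform of Cox4, had 1.79 and 1.05 CPM against 0.592 and 0.781 CPM (1.07, SE 0.49). Its counts were only 11 to 37 per library over the 8 libraries. Endothelial markers moved in the same comparison, with 10 of 15 called higher in knockout-labelled DMXAA libraries, among them Esm1 (1.37), Egfl7 (1.89) and Kdr (1.11). Their summed level was 1643 and 1510 CPM in knockout-labelled DMXAA libraries, 1000 and 901 in knockout-labelled DMSO libraries, 806 and 838 in wild-type DMXAA libraries and 1089 and 1335 in wild-type DMSO libraries, and none of the 15 was at 0 in every library. Other lists moved too. Of 12 markers of fibroblasts and stellate cells, 11 had positive values (median 0.83) and Pdgfrb was called (0.81). Of 14 macrophage markers, 13 had positive values (median 0.80) and Cd68 was called (0.92). All 16 acinar markers tested had negative values (median -2.93, 0 called). The part of all these cells in the values of Ndufa4l2 and Cox4i2 was not tested.

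Averaged over both treatments, 2 of 12 mitochondrial and 0 of 79 nuclear genes differed between genotype labels, where 1.65% of all genes tested were called. mt-Co1 (ENSMUSG00000064351, chrM:5328-6872) was higher in knockout-labelled islets by 0.69 (SE 0.13, edgeR adjusted p = 0.0174) and mt-Cytb (ENSMUSG00000064370, chrM:14145-15288) by 0.63 (SE 0.13, adjusted p = 0.0282). For both, the knockout-labelled libraries lay above the wild-type libraries under either treatment. mt-Nd4 was at 0.47 and mt-Nd5 at 0.67 without passing the test, and mt-Nd2 was at -0.17. mt-Nd5 was called with DESeq2, with the replicate block, with the acinar covariate (1.21) and without wild-type DMSO library 1 (0.92), and mt-Nd4 was called with DESeq2 and with no filter. DESeq2 called 4 mitochondrial and 3 nuclear genes. In edgeR, 4 and 28 had an unadjusted p under 0.05, as had 2875 of all 17055 genes tested. The mt-Co1 call held in 5 of 8 fits without a library and the mt-Cytb call in 3 of 8, and neither held with the acinar covariate, at 0.81 and 0.66. Cell markers moved here as well. All 10 markers of other islet hormone cells had positive values (median 0.33, 2 called), as had all 15 endothelial markers (0.26, 1 called). So had 9 of 10 lymphocyte markers (1.30, 1 called), while all 16 acinar markers had negative values (-1.86, 0 called). Beyond the acinar covariate, the part of these cells was not tested.

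Nuclear genes had a median of 0.27 in that comparison, and 75 of 79 values were positive. The median was 0.41 without knockout-labelled DMXAA library 1 and 0.11 without library 2. Ndufa7 came nearest to the threshold (0.54, SE 0.13, edgeR adjusted p = 0.0612), followed by Atp5d (0.47, SE 0.13) and Ndufs5 (0.50, SE 0.15), a complex I subunit. With the acinar covariate these values were 0.42 for Ndufa7, 0.22 for Atp5d and 0.21 for Ndufs5. The count of nuclear calls rose without knockout-labelled DMXAA library 1 and without wild-type DMSO library 2. It did not rise without knockout-labelled DMXAA library 2. The share of all genes called in these fits is not given. The 2 knockout-labelled DMXAA libraries differed in make-up. Beta-cell markers summed to 182456 and 324483 CPM in them, other islet hormone-cell markers to 22407 and 32130 CPM, and their TMM scaling factors were 1.06 and 0.872.

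The spread between the 2 libraries of a group was uneven across the nuclear genes. In knockout-labelled DMXAA islets, library 1 was below library 2 by more than 0.5 log2 units in 40 of 79 genes and above it by as much in 1, with a median difference of -0.51. In wild-type DMSO islets 19 genes were lower by that much in library 1 and 6 were higher, with an SD over genes of 0.46. In knockout-labelled DMSO islets and in wild-type DMXAA islets 0 genes differed by that much in either direction, and the SDs were 0.19 and 0.13. Over 5614 genes of like level the SD was 0.34 in knockout-labelled DMXAA islets, 0.17 in knockout-labelled DMSO islets, 0.21 in wild-type DMXAA islets and 0.36 in wild-type DMSO islets.

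Some short mRNAs differed widely between libraries. Atp5k, a membrane subunit of ATP synthase with a 371-base transcript, had 12.4 and 24.8 CPM in knockout-labelled DMXAA libraries, 24.7 and 22.5 CPM in knockout-labelled DMSO libraries, 20.995 and 21.49 CPM in wild-type DMXAA libraries, and 3.5 and 13.1 CPM in wild-type DMSO libraries. Uqcr11, a 445-base complex III transcript, had 22.9 and 46.9 CPM, 39.9 and 32.8 CPM, 35.8 and 33.0 CPM, and 11.9 and 22.3 CPM in the same 4 groups. Both genes were chosen after their values were seen. In both genes library 1 of wild-type DMSO was the lowest, and library 2 of that group and library 1 of knockout-labelled DMXAA were the next lowest. Across the 79 genes, the difference between library 1 and library 2 had a correlation with log2 transcript length of 0.38 in knockout-labelled DMXAA islets, -0.16 in knockout-labelled DMSO islets, 0.27 in wild-type DMXAA islets and 0.33 in wild-type DMSO islets, as a description across genes of the same 2 libraries. The fold changes went with length as well, in a direction that changed with the comparison. Their correlation with log2 transcript length was -0.44 with DMXAA in wild-type islets and 0.33 in knockout-labelled islets. Between genotype labels it was -0.46 under DMSO and 0.26 under DMXAA. The 39 genes shorter than the median of 758 bases had a median log2 fold change of 0.38 with DMXAA in wild-type islets and the 40 others 0.11, and between genotype labels under DMSO the medians were 0.54 and 0.30. The part of transcript length in these differences was not tested.

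**Figure D5:**
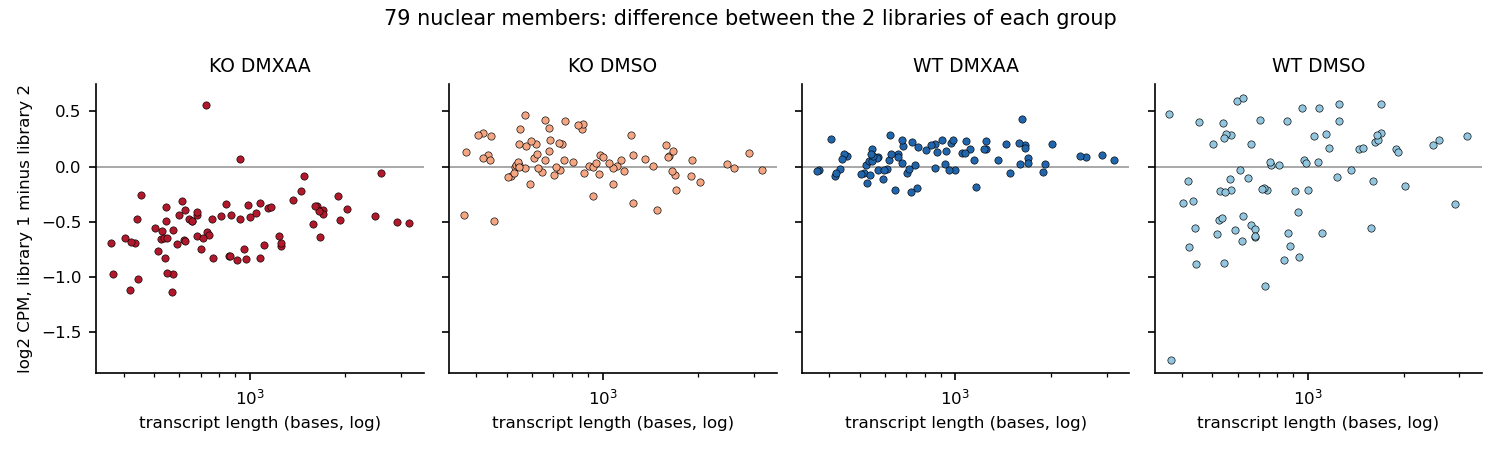
Difference in log2 CPM between library 1 and library 2 of each group (vertical axis) for the 79 nuclear genes, against transcript length in bases (horizontal axis, log scale). Knockout-labelled DMXAA islets lie mostly below 0 (median -0.51) and wild-type DMSO islets spread widely (SD 0.46), while the other 2 groups stay near 0 (SD 0.19 and 0.13).

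Isoforms of the same subunit differed in level. Cox6a2, the heart and muscle isoform of a complex IV subunit, made up 15.7% to 26.0% of the Cox6a pair per kilobase (median 20.4%), with Cox6a1 the rest. Cox6a2 had 41.0 and 63.6 CPM in knockout-labelled DMXAA libraries, 61.4 and 55.6 CPM in knockout-labelled DMSO libraries, 61.2 and 51.7 CPM in wild-type DMXAA libraries and 33.8 and 52.6 CPM in wild-type DMSO libraries, and neither gene was called. Cox4i2 made up 0.396% to 1.24% of the Cox4i pair per kilobase, on 11 to 37 counts per library. The other muscle or testis isoforms Cox7a1, Cox6b2 and Cox8b had at most 9, 7 and 1 counts, while their partners Cox7a2, Cox6b1 and Cox8a averaged 102, 125 and 228 CPM per kilobase. The 3 genes for the same mature subunit c of ATP synthase shared their level, with medians of 27.6% for Atp5g1, 41.6% for Atp5g2 and 30.8% for Atp5g3 per kilobase. Wild-type DMSO library 1 stood apart, at 43.1%, 29.6% and 27.3%.

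The promoters of the nuclear genes were searched for motifs of factors known to drive respiratory genes, in the 250 bases before and 50 after the start that RefSeq gives (GRCm38.p6), for 66 of 84 nuclear symbols. The NRF1 motif GCGCANGCG was present on either strand in 30.3% of them and in 6.35% of 27025 promoters of all genes. The ETS motif CCGGAAG, bound by the factor GABP, was in 24.2% against 9.08%, the YY1 motif AAGATGGC in 13.6% against 2.86%, and the TATA box letters TATAAA in 10.6% against 14.1%. The median GC content was 57.2% against 52.7%. These are matches of letters and not binding sites. A promoter with several matches (Cox6a1), 1 with a single NRF1 match (Ndufs5, among the genes nearest to the threshold between genotype labels) and 1 with a YY1 match (Ndufb8, the nuclear gene with the smallest averaged p for DMXAA) are shown, with matches in capitals. Matches did not mark the genes nearest to that threshold in general: the windows of Ndufa7 and Atp5d, which lay nearer to it, held 0 matches to the NRF1, ETS and YY1 letters.
Cox6a1: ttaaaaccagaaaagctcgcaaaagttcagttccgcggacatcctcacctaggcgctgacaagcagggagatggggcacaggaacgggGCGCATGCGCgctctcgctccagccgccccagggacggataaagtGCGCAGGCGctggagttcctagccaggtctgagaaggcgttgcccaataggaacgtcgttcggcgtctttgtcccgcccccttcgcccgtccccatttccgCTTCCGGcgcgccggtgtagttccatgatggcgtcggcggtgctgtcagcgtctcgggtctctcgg
Ndufs5: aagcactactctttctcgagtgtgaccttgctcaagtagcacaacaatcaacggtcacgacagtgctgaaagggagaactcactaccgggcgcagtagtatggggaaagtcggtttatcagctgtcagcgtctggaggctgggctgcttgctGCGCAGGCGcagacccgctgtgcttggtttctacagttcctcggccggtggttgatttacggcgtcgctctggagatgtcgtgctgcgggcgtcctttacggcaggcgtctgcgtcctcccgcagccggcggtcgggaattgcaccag
Ndufb8: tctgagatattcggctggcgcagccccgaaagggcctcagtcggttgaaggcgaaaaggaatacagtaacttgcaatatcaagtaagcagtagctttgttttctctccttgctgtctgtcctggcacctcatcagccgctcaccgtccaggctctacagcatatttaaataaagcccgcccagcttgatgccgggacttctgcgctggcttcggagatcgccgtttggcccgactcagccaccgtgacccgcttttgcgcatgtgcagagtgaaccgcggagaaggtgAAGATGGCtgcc
They lie at chr5:115348909-115349208, chr4:123718137-123718436 and chr19:44555393-44555692, each on the minus strand, and the first holds 3 NRF1 matches, of which 2 overlap on opposite strands, and 1 ETS match.

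Other mitochondrial gene lists gave no call in any of the 7 comparisons. The factors of mitochondrial transcription and RNA maturation, among them the mitochondrial RNA polymerase and the RNA-cleaving enzymes, had a median log2 fold change with DMXAA of -0.15 in knockout-labelled islets, where 26 of 27 were negative, and of -0.19 in wild-type islets, where 19 of 27 were. The 15 genes of mitochondrial DNA upkeep had medians of -0.07 in knockout-labelled and -0.24 in wild-type islets, and the 13 nuclear regulators of respiratory genes 0.05 in knockout-labelled and 0.01 in wild-type islets. Between genotype labels under DMSO, the 42 mitochondrial ribosomal protein genes had a median of 0.35 with 38 positive, the 27 large-subunit genes of the cytosolic ribosome 0.40 with 26 positive, the 44 assembly factors of the respiratory complexes 0.21 with 36 positive, the 17 electron carrier genes 0.12 and the 17 citric acid cycle genes 0.10. The medians of the ribosomal lists lay nearest to the 0.46 of the nuclear respiratory subunits, and all genes tested had a median of 0.00.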

How the data were processed

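Polyadenylated RNA of islets was sequenced as paired reads of 150 bases on a HiSeq2500, per the labels' protocols. The deposited values are whole-number read counts per gene and library that the authors made with HISAT2 and HTSeq on mm10, per the submitters' processing notes. For tool versions, annotation release and strand setting, the sources used here give nothing. No total for unassigned reads was used.

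Of 54532 identifiers, 54495 matched GENCODE M21, which gave symbols, gene types, coordinates and 1 transcript per gene (best APPRIS rank, then best transcript support level, then the shortest). GENCODE M21 names Sting1 Tmem173. Nuclear copies were sought with BLAST+ among annotated transcripts at 98% identity or more. Promoter windows came from RefSeq.

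Counts were scaled with TMM, and 17055 genes passed filterByExpr. CPM values use the scaled library sizes, and shares use total counts. All 8 libraries entered 1 edgeR 4.0.16 quasi-likelihood fit with a coefficient per group (R 4.3.3, limma 3.58.1), and p-values were adjusted by Benjamini-Hochberg over all genes tested, with a call at an adjusted p under 0.05. A log2 fold change is given with its standard error. The 7 comparisons were DMXAA minus DMSO in each genotype label, the difference between those effects, knockout-labelled minus wild-type under each treatment, and the 2 averages. Comparisons that share libraries are not independent. With 2 libraries in a group, sums and ratios are described without a test.

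Alternatives were other scalings, no filter and a stricter filter (1 CPM in 4 libraries), DESeq2 1.42.0, limma-voom, the older edgeR test, fits of 4 libraries, a replicate block, an acinar covariate and leaving out each library. The acinar covariate was lowest in both knockout-labelled DMXAA libraries and differed most within a group in wild-type DMSO islets. In comparisons with knockout-labelled DMXAA libraries it cannot separate acinar content from group. Scripts were tested on simulated data. Replicate libraries differed beyond sampling noise (chi-square per degree of freedom 6.83 to 53.8), so none was a duplicate.

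Genes named were every mitochondrial member, the 3 nuclear members with the smallest p in each comparison, complex II, isoform sets, the highest and lowest of each complex and called genes of other lists. One gene that this rule names is not reported here. The members and all gene lists were chosen with earlier results of these data known.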

Additional observations from a re-analysis of the deposited data

Results flagged for a closer look

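The DMXAA effect on Cxcl10, the interferon-induced chemokine used to check the labels, differed between genotype labels. The log2 difference of the effects, knockout-labelled minus wild-type, was -7.12 (SE 0.54, edgeR quasi-likelihood interaction term, adjusted p = 0.000383). Cxcl10 had 5.71 and 5.44 CPM in knockout-labelled DMXAA libraries, 9.34 and 5.89 CPM in knockout-labelled DMSO libraries, 574 and 521 CPM in wild-type DMXAA libraries and 7.78 and 2.95 CPM in wild-type DMSO libraries. Sting1 had a log2 difference of 0.02 (SE 0.34) between the labels, averaged over treatments, in the same libraries.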

How the results depend on the processing

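With 2 libraries a group, counts of calls moved with most choices, and the cause was not tested. Shares over all genes are given for the main edgeR fit only, so calls of other fits stand without such a share. Mitochondrial calls for DMXAA in wild-type islets (1) were 0 with the stricter filter and with the fit of 4 libraries, 3 with DESeq2 and 2 with the acinar covariate. In knockout-labelled islets (0) the fit of 4 libraries gave 1. Averaged over genotype labels (2), there was 1 with the stricter filter and 1 with limma-voom, 6 with DESeq2 and 0 with the acinar covariate. Between genotype labels under DMXAA (0) there were 3 with no filter, 4 with DESeq2, 1 with limma-voom, 1 with the fit of 4 libraries and 2 with the acinar covariate. Under DMSO (0) there were 2 with no filter and 2 with DESeq2, and averaged over treatments (2) there were 4 with DESeq2.

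Nuclear calls were 0 in each comparison. For DMXAA in wild-type islets there was 1 with no filter and 3 with DESeq2, and for the difference of the effects 1 with DESeq2 and 6 with the acinar covariate. Between genotype labels under DMSO there were 6 with no filter and 8 with DESeq2, and averaged over treatments 2 with no filter and 3 with DESeq2. The replicate block gave 1 nuclear call in that last comparison. Differences between libraries 1 and 2 showed little correlation across genes from group to group (-0.10 to 0.07). This cannot exclude that libraries of the same number shared a mouse, pool or day. With the block, the adjusted p of mt-Nd4 for DMXAA in wild-type islets was 0.0543 and that of mt-Nd5 was 0.0129.

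Leaving out 1 library at a time, mitochondrial calls ranged from 0 to 4 for DMXAA in wild-type islets, 0 to 1 in knockout-labelled islets, 0 to 1 for the difference of the effects, 0 to 3 between genotype labels under DMXAA, 0 to 1 under DMSO, 0 to 5 for averaged DMXAA and 0 to 3 for averaged genotype. Nuclear calls ranged from 0 to 13 for DMXAA in wild-type islets, 0 to 5 for the difference, 0 to 1 between genotype labels under DMXAA, 0 to 11 under DMSO, 0 to 2 for averaged DMXAA and 0 to 32 for averaged genotype. The log2 ratio of mitochondrial to nuclear sums ranged from -0.99 to -0.63 for DMXAA in wild-type islets, -0.77 to -0.12 in knockout-labelled islets, 0.14 to 0.79 between genotype labels under DMXAA and -0.10 to 0.29 under DMSO. As a difference of medians over members it was -1.53 in wild-type and -0.91 in knockout-labelled islets for DMXAA, and as a difference of means it was -0.22 between genotype labels under DMSO.

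Direction changed with the acinar covariate for mt-Nd6 with DMXAA in knockout-labelled islets (0.036), Ndufa4l2 between genotype labels under DMXAA (-0.061), Ndufv3 for averaged DMXAA (-0.031) and Ndufa11 for averaged genotype (-0.081). Each of these comparisons includes the knockout-labelled DMXAA libraries, whose acinar sums were the lowest, so acinar content and group cannot be separated. Depth limits mt-Nd3 and mt-Nd4l, with 10 to 47 counts a library, Cox4i2, with 11 to 37, and the 7 genes left untested.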
